A study of Mus musculus with 16 samples.

Results

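Tfcp2l1, Tbx3, Zfp42 and Prdm14 are 4 transcription factor genes of the naive pluripotent state, and 21 of the 26704 OCT4 peaks of a merged mouse embryonic stem (ES) cell list were assigned to them. A peak, a stretch of genome where the reads of an OCT4 ChIP-seq experiment pile up, was assigned to a gene when its midpoint lay inside the gene body or within 100 kb of any transcript start annotated in GENCODE M21 on build mm10. Tfcp2l1 had 3 peaks, Tbx3 had 9, Zfp42 had 4 and Prdm14 had 5, and no peak belonged to more than 1 of them. The rule names the genes and uses no measured value.

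The cells were 2TS22C, a mouse ES cell line in which the only source of SOX2 is a transgene behind a Tet-Off promoter, so that doxycycline (dox) shuts SOX2 off while OCT4 stays on. OCT4 ChIP-seq was performed in 2 groups of 2 libraries each, SOX2 ON without dox and SOX2 OFF with 1 µg/ml dox, both for 26 h. All of these cells grew in serum with LIF, the GSK3 inhibitor CHIR99021 and the MEK inhibitor PD184352, and all were fixed with disuccinimidyl glutarate and then formaldehyde. According to the study some SOX2 protein is still present at this time of dox. The list holds coordinates alone, with no height, count or library name, so SOX2 ON and SOX2 OFF could not be compared, no value has a replicate error and the depth is unknown. A place without a peak in the list cannot be told from one that stayed below the threshold of peak calling.

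Naive pluripotency is the state of the epiblast before implantation, and ES cells in LIF with both kinase inhibitors are kept close to it. OCT4 and SOX2 stand at the centre of the network that holds this state, often bound side by side on a composite element made of an octamer, read by OCT4, and an adjoining SOX site. The 4 genes encode outer members of that network. TFCP2L1, a CP2-family factor, is a target of LIF and STAT3 signalling, and TBX3, a T-box factor, is a LIF-responsive gene that also acts in limb, heart and mammary gland development. ZFP42, better known as REX1, is a zinc finger protein related to YY1 and the classical marker of naive cells. PRDM14 represses FGF receptor signalling and de novo DNA methylation and is needed for primordial germ cells.

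The first 3 sequences below are shown because they hold a match, with 3 mismatches each, to the element on which OCT4 and SOX2 were described to meet. For Tfcp2l1, which had no such match, the OCT4 octamer of its peak closest to the start is shown. The peak closest to the Prdm14 start is shown as well, chosen after its values were seen. All are from build mm10, written 5′ to 3′. The composite motif was taken as the octamer ATTTGCAT followed directly by AACAATG, 15 bases in all, and a match could have up to 3 mismatches on either strand. The octamer was searched without mismatch, and the SOX core as CCATTGT or CCTTTGT, both also on either strand. A composite match with an intact octamer also counts as an octamer, and one with an intact SOX part can also count as a SOX core. All 3 mismatches fell in the SOX part at Zfp42 and in the octamer at Tbx3, and at Prdm14 neither part was intact. Capitals mark the composite match in the 3 sequences that follow, and in the Zfp42 promoter also the KLF-type site GGGTGTGG, which reads as CCACACCC on the strand shown.
Zfp42 promoter, chr8:43307010-43307282, minus strand: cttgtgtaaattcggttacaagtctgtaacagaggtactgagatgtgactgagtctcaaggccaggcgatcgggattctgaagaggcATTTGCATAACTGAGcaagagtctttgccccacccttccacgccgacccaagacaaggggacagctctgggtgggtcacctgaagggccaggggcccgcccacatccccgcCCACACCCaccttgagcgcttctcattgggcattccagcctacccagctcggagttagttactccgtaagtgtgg
Tbx3 upstream, chr5:119580024-119580173, plus strand: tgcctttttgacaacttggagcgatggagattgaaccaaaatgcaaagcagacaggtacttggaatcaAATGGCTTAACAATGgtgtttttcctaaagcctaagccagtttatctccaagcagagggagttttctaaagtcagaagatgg
Prdm14 downstream, chr1:13059791-13059940, minus strand: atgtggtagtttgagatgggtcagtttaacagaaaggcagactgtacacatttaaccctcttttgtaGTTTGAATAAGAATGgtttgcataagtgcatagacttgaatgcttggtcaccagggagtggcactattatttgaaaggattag

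In the next 2 sequences capitals mark the octamer of the Tfcp2l1 peak and the SOX core of the Prdm14 peak, each from the peak closest to the start of its gene.
Tfcp2l1 upstream, chr1:118625546-118625723, minus strand: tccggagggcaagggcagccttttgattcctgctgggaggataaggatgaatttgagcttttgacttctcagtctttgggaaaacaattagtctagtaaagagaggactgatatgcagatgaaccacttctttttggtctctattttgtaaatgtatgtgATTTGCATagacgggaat
Prdm14 upstream, chr1:13132101-13132250, plus strand: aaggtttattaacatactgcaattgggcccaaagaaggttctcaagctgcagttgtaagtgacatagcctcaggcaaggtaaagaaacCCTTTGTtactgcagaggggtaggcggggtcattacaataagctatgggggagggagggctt

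By the same rule 85.7% of the 21938 protein-coding genes had at least 1 peak, so the presence of a peak at all 4 genes is close to this background. Their numbers of peaks differed. Tbx3, with 9 peaks, had more than 94.7% of protein-coding genes, and 5.29% of these genes had 9 or more. Prdm14 had more peaks than 70.0% of them, Zfp42 more than 57.7%, and Tfcp2l1, whose 3 peaks equal the median of 3 over all protein-coding genes, more than 43.6%. Because the interval of a gene grows with its body and its number of starts, the peaks were also counted per 100 kb of interval. The density was 4.29 at Tbx3, 2.50 at Prdm14, 2.00 at Zfp42 and 1.5 at Tfcp2l1, against a median of 1.395, and the order of the 4 genes was the same as by number.

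**Figure D1:**
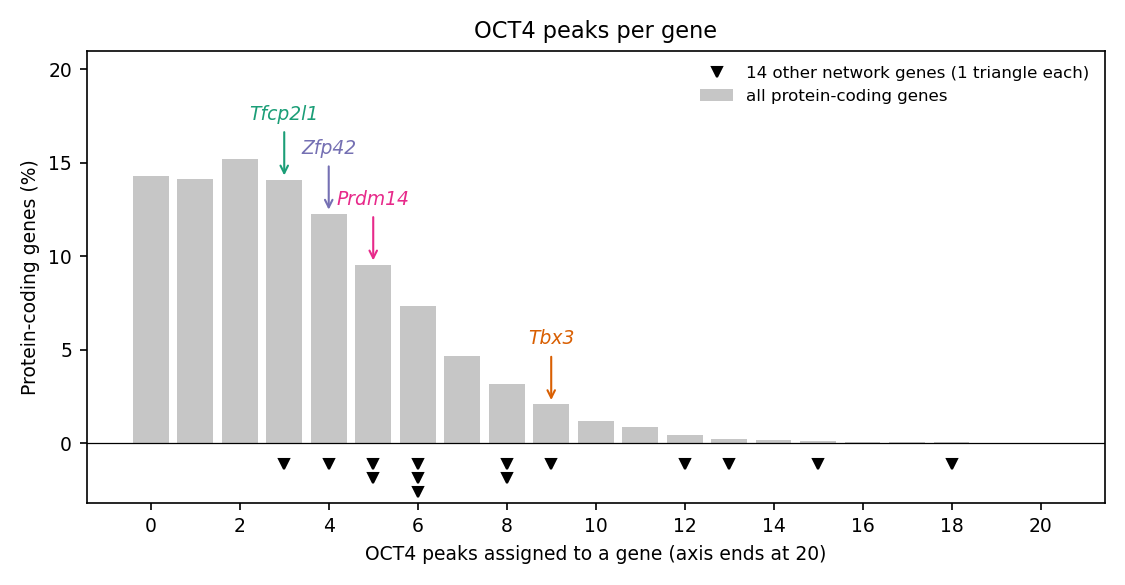
Number of OCT4 peaks per gene (x axis, ending at 20) against the share of the 21938 protein-coding genes in percent (y axis, grey bars), with arrows for the 4 genes and 1 black triangle for each of 14 other genes of the naive network. Tfcp2l1, Zfp42 and Prdm14 sit at 3, 4 and 5 peaks among the bulk of the genes, and Tbx3 sits at 9 in the upper tail.

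The 4 genes lie where other coding genes are few. The assignment intervals of Tbx3 and Zfp42 held no start of another protein-coding gene, that of Tfcp2l1 held those of Clasp1 alone and that of Prdm14 those of Ncoa2 alone, whereas the median over all protein-coding genes was 4 others. For each of the 21 peaks the nearest start of any protein-coding gene was one of the gene it was assigned to. Among the 18803 protein-coding genes with a peak, 2248 (12.0%) had all of their peaks nearest to their own start. That share was not taken among genes with as few coding neighbours, so it does not set the 4 genes against like surroundings. Among the 4264 protein-coding genes with at most 1 other coding gene starting in their interval, the median was 2 peaks, and Tbx3 had more than 94.4% of them, Prdm14 more than 76.3%, Zfp42 more than 66.8% and Tfcp2l1 more than 55.4%.

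Of the 21 peaks, 12 lay upstream and 9 downstream of the start closest to them, 3 lay inside the body of the gene, and 19 lay more than 1 kb from any start of it. Their distances ran from 0.162 kb at Zfp42 to 90.7 kb at Tbx3, with a median of 26.6 kb. No midpoint fell on a coding exon or an untranslated region, which took 1.53% (coding), 2.21% (5′) and 1.39% (3′) of all peaks. The midpoints were intergenic for 11 peaks (52.4%, against 46.1% of all peaks), intronic for 9 (42.9%, against 45.5%) and on the exon of a non-coding gene for 1 (4.76%, against 3.26%).

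**Figure D2:**
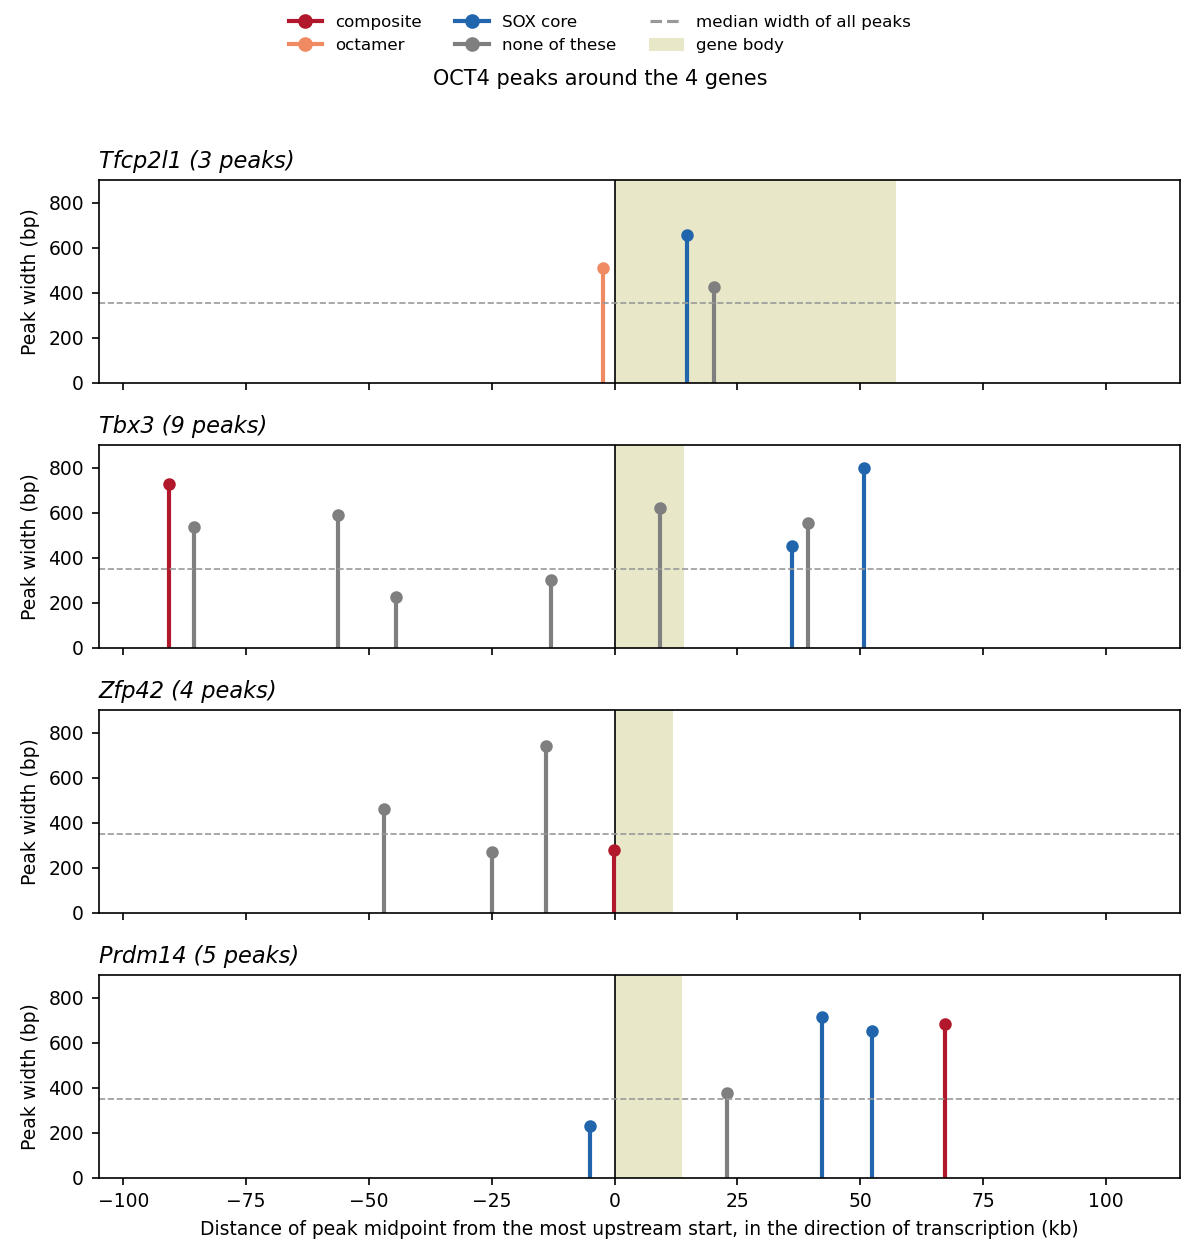
Each of the 21 peaks drawn at the distance of its midpoint from the most upstream start of the gene in kb (x axis, in the direction of transcription), with a height equal to the peak width in bp (y axis), coloured by the first of composite match, octamer and SOX core that it holds. The Zfp42 peaks all lie upstream and the Prdm14 peaks mostly downstream, the Tfcp2l1 peaks lie within 20.2 kb of the start, and the Tbx3 peaks spread over 141 kb on both sides.

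At Zfp42 (ENSMUSG00000051176.6, minus strand, chr8:43295063-43306980) OCT4 was found at the promoter itself. The peak closest to the start (chr8:43307002-43307282, 281 bp) had its midpoint 0.162 kb upstream and was one of the 2 of the 21 peaks within 1 kb of a start. It held a composite match with 3 mismatches, 46 bp from the midpoint, whose octamer was intact, and the KLF-type site. It also had the highest GC content of the 21 peaks (56.6%, against a median of 46.4% over all peaks) and no repeat-masked base. Intact octamers were found in 1.74% of 32851 RefSeq promoter windows (250 bases before to 50 after a start), composite matches in 0.968% and KLF-type sites in 3.56%. The Zfp42 window held 1 octamer, 1 KLF-type site and the composite match with 3 mismatches. The Tfcp2l1 window, which no peak overlaps, held neither an octamer nor a KLF-type site, and its closest composite match had 6 mismatches. The other 2 genes have no entry in the RefSeq promoter table.

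The other Zfp42 peaks stood 13.9, 25.0 and 46.9 kb upstream in intergenic sequence, and none lay downstream of the gene or within it. The widest of them (chr8:43320544-43321286, 743 bp, 13.9 kb upstream) was wider than 95.4% of the list and had no octamer and no SOX core. It held a pair of KLF-type sites and 1 STAT-type palindrome (TTCCAGGAA, 297 bp from the midpoint). KLF4 and STAT3, factors that read such sites, belong to the same naive network. In the list, 1696 peaks held 1818 KLF-type sites, so peaks with more than 1 also occur elsewhere. The stretch with both KLF-type sites of the Zfp42 peak, in capitals, was chosen after its values were seen. It is shown because this is the only peak of the 21 with more than 1 of them.
Zfp42 far upstream, chr8:43320806-43320955, plus strand: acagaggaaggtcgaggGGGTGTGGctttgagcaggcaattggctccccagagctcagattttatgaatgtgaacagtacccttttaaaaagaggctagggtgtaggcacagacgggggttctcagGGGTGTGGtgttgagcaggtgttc
The peak 46.9 kb upstream (463 bp) consisted of repeat-masked sequence over its whole length (100%), as did 241 peaks of the list (0.902%). Reads in repeats can map to more than 1 place, and whether they did here was not tested.

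At Tbx3 (ENSMUSG00000018604.18, plus strand, chr5:119670669-119684724) OCT4 peaks lined both sides of a gene that is short against its surroundings. With 5 annotated starts, 5 peaks lay upstream of the gene, 1 inside it and 3 downstream of its end. The farthest peak (chr5:119579618-119580346, 729 bp) stood 90.7 kb upstream and was the only Tbx3 peak with a composite match, which had 3 mismatches, 117 bp from the midpoint, with its SOX part AACAATG intact. It also held a SOX core, which overlaps that match, and a YY1-type site (AAGATGGC). The widest of the 21 peaks (chr5:119720980-119721779, 800 bp) stood 41.1 kb downstream of the nearest Tbx3 start and also held a SOX core and a YY1-type site. No Tbx3 peak held an octamer without mismatch.

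The peak closest to a Tbx3 start (chr5:119679676-119680298, 623 bp) lay in the gene body, in an intron, 0.262 kb from the start of a non-coding transcript of the gene. It was 9.32 kb downstream of the first start, and no peak lay within 1 kb of the start of a coding Tbx3 transcript. It held none of the motifs searched. All 5 upstream midpoints fell within the antisense gene Tbx3os1, 1 also in the long non-coding gene Gm16063 and 1 in Gm16064. The peak 44.5 kb upstream (227 bp, the narrowest of the 21) had its midpoint 224 bp from the start of Gm16063. RefSeq holds 4 enhancer records, 2 of which overlap each other, in the Tbx3 interval and none near the other 3 genes, and no peak overlapped any of them. The gaps to the nearest peak were 703 bp for VISTA element mm1177, 4027 bp for eB, 4744 bp for VISTA element mm1178 and 4943 bp for eA. Of all peaks, 150 (0.562%) overlapped a RefSeq enhancer.

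At Prdm14 (ENSMUSG00000042414.7, minus strand, chr1:13113457-13127163) 4 of the 5 peaks lay beyond the 3′ end of the gene. The peak closest to the start (chr1:13132020-13132250, 231 bp) stood 4.97 kb upstream and held a SOX core. The 4 downstream peaks stood 22.9, 42.2, 52.4 and 67.2 kb from the start, the 3 farther ones being 715, 654 and 686 bp wide. The farthest (chr1:13059583-13060268) held the only composite match of the gene, with 3 mismatches, 59 bp from the midpoint and with neither the octamer nor the SOX core intact. Its midpoint lay on the exon of Gm37162, a tentative transcript model, 26 bp from the start of that model, and 52.0% of it was repeat-masked. The widest (chr1:13084636-13085350, 715 bp) and the one after it each held a SOX core, and the latter lay in an intron of the long non-coding gene Gm29283. A SOX core was thus found in 3 of 5 Prdm14 peaks (95% Wilson interval 23.1 to 88.2%), against 30.3% of all peaks. An octamer was found in none of them (0 to 43.4%), against 11.0% of all peaks. Both intervals contain the share of the list, so these counts do not set the Prdm14 peaks apart from it.

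At Tfcp2l1 (ENSMUSG00000026380.10, plus strand, chr1:118627945-118685168) the 3 peaks spanned 22.5 kb around the start. The closest (chr1:118625395-118625904, 510 bp) stood 2.30 kb upstream and held the octamer shown above, 89 bp from the midpoint, with a closest composite match of 4 mismatches. The widest (chr1:118642423-118643077, 655 bp) lay 14.8 kb downstream in an intron and held a SOX core. The third (chr1:118647979-118648403, 425 bp), 20.2 kb downstream in an intron, held a pair of matches to the bipartite site read by TFCP2L1 itself (CCAG, any 6 bases, CCAG). It was the only one of the 21 peaks with more than 1 such match. In the list, 1371 peaks held 1454 such matches, so peaks with more than 1 also occur elsewhere. Whether TFCP2L1 binds at this peak was not tested. The sequence of this Tfcp2l1 peak, with both matches in capitals, was chosen after its values were seen.
Tfcp2l1 intron, chr1:118648146-118648377, plus strand: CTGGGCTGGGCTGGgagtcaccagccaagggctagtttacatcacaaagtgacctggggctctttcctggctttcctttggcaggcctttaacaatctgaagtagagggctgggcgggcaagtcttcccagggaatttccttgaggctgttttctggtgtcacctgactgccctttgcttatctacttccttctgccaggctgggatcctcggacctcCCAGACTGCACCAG
None of the 3 peaks reached the composite threshold, so Tfcp2l1 was the only one of the 4 genes without a composite match.

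Most peaks of the 4 genes (16 of 21) were wider than the median peak of this list. The median width was 535 bp (middle quartiles 377 to 655 bp, n = 21 peaks), and the 95% binomial interval of the median ran from 377 to 655 bp. Over all peaks the median was 352 bp and the quartiles were 267 and 471 bp. For the 16 peaks within 50 kb of a start the median was 457 bp, which lies between these quartiles. Among peaks of at least 300 bp it was 589 bp for the 4 genes and 429 bp for the list. Of the 21 peaks, 12 (57.1%, 95% Wilson interval 36.5 to 75.5%) were wider than the upper quartile of the list, above which 25.0% of all peaks lie. Widths by gene were 425 to 655 bp at Tfcp2l1, 227 to 800 bp at Tbx3, 268 to 743 bp at Zfp42 and 231 to 715 bp at Prdm14, so the ranges of the 4 genes overlapped. The 111 peaks of 14 other naive network genes had a median of 372 bp, with 28 (25.2%) above the upper quartile. A merged peak is the union of the calls behind it, so these widths are not the extent of binding in 1 library. Peaks of the same gene share their surroundings, and the intervals given here cover counting error only.

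**Figure D3:**
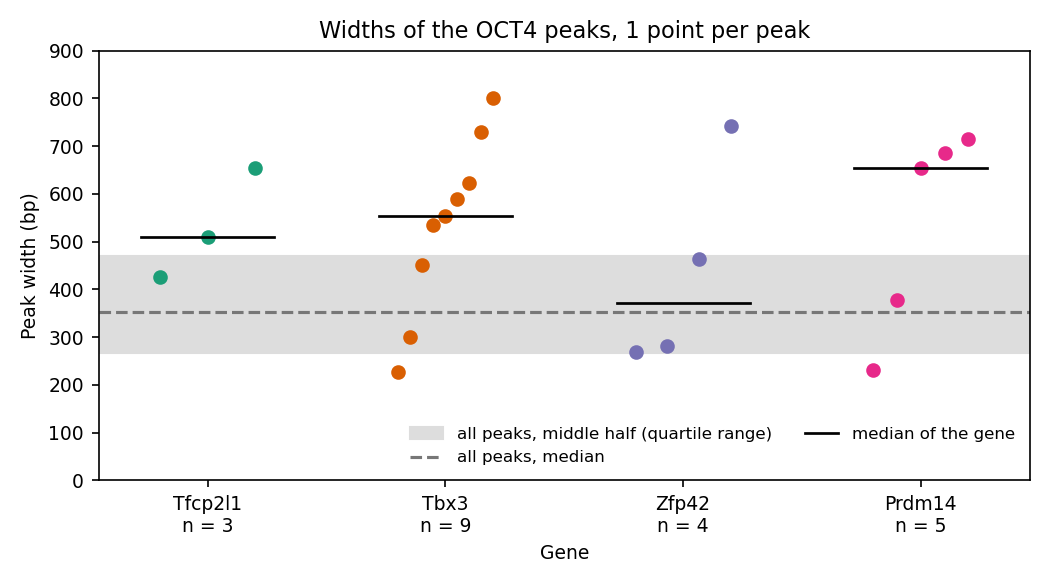
Width of each of the 21 peaks in bp (y axis) by gene (x axis), with the median of each gene as a black line, the quartile range of all 26704 peaks as a grey band and their median as a dashed line. The medians of Tfcp2l1, Tbx3 and Prdm14 (510, 553 and 654 bp) lie above the band, and that of Zfp42 (372 bp) lies inside it.

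The 95% intervals for the OCT4 and SOX2 elements in these peaks contained the shares of the list. A composite match was found in 3 of 21 peaks (14.3%, 95% Wilson interval 4.98 to 34.6%), against 11.5% of all peaks. An intact octamer was found in 2 (9.52%, 2.65 to 28.9%), against 11.0%, and a SOX core in 7 (33.3%, 17.2 to 54.6%), against 30.3%. Both comparisons with the list that stood above it turned under some settings. Of the 16 peaks within 50 kb, 6.25% had a composite match, and in the central 200 bp of the peaks a SOX core was found in 9.52%, against 20.5% of all peaks. The composite share stayed above the list in the central 200 bp (9.52 against 8.59%) and with up to 4 mismatches (61.9 against 35.9%). It was below the list with at most 2 mismatches (0 against 2.21%). In 11 of the 21 peaks none of the 3 elements was present. The matching share of all peaks was not taken, so this count does not set the 21 peaks apart from the list. Wider peaks offer more sequence to match, and among the 9692 peaks of the list between 377 and 655 bp wide the shares were 14.02% for the composite, 13.3% for the octamer and 35.5% for the SOX core. In windows of the same widths centred 5 kb to each side of the 21 midpoints (38 windows, after leaving out 4 that met another peak or unknown bases), a composite match was found in 2 (5.26%), an octamer in 1 (2.63%) and a SOX core in 3 (7.89%). The intervals of the peaks and of the windows overlap for all 3, and those of the SOX core least, at 17.2 to 54.6% and 2.72 to 20.8%.

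No peak of the 4 genes came closer to the composite than 3 mismatches. At that distance stood 3 peaks, and 10 (47.6%) had a closest match of 4 mismatches, against 24.4% of all peaks and 15.8% of the windows. With up to 4 mismatches allowed, which is beyond the threshold of 3, the share was thus 61.9% of the peaks. It was 35.9% of the list, 42.3% of the list peaks between 377 and 655 bp wide and 21.1% of the windows. These shares are given without an interval. At the threshold of 3 the share was 14.3% of the peaks and 14.02% of the list peaks of these widths. In the list, 2.21% of peaks had 2 mismatches or fewer.

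**Figure D4:**
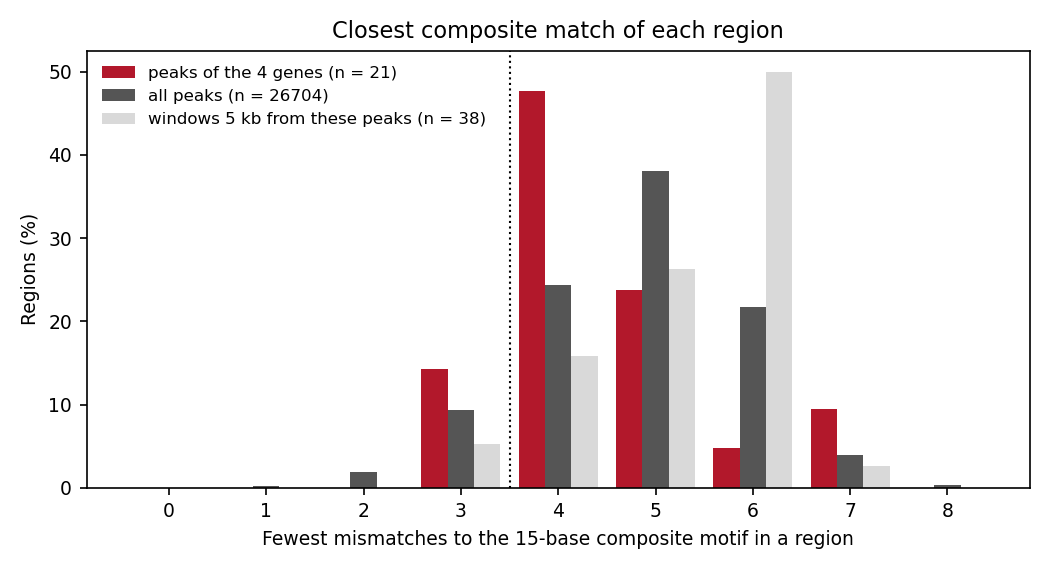
Fewest mismatches to the 15-base composite motif in a region (x axis) against the share of regions in percent (y axis), for the 21 peaks, all 26704 peaks and the 38 windows 5 kb away, with a dotted line at the threshold of 3. The peaks of the 4 genes have their highest bar at 4 mismatches (47.6%), all peaks at 5 (38.02%) and the windows at 6 (50.0%).

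Sites of other factors were searched without mismatch on both strands, in the forms just given and as TCAAGGTCA for ESRRB, AGGTGTGA for T-box factors and GGTCTCTAA for PRDM14. The KLF-type site was present in 4 of the 21 peaks (19.05%, 95% Wilson interval 7.67 to 40.0%), against 6.35% of all peaks. These were 2 of Zfp42, 1 of Tbx3 and 1 of Prdm14. The KLF-type share was 10.8% in the 111 peaks of the 14 other network genes and 5.26% in the windows 5 kb away. The TFCP2L1 site was in 2 (9.52%, against 5.13%), 1 of Tfcp2l1 and 1 of Tbx3. The YY1-type site was in 2, both of Tbx3 (9.52%, against 2.32%), and in 0.901% of the network gene peaks and 5.26% of the windows. The ESRRB site was in 1, the Tbx3 peak 56.2 kb upstream, which also held the TFCP2L1 site (4.76%, against 3.08%). The STAT-type palindrome TTCCNGGAA was in 1 (4.76%, against 1.73%). The T-box site, found in 2.27% of all peaks, and the PRDM14 site, found in 0.408%, were in 0 of 21 peaks, and a count of 0 allows a share of up to 14.3% when taken as 3 counts of 21, or 15.5% by the upper Wilson limit. With 21 peaks, each of these differences rests on 1 to 4 peaks, and the lists of sites are descriptions of letters, not of binding. Wider peaks offer more sequence to match, and for these sites the share among list peaks of like width was not taken.

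**Figure D5:**
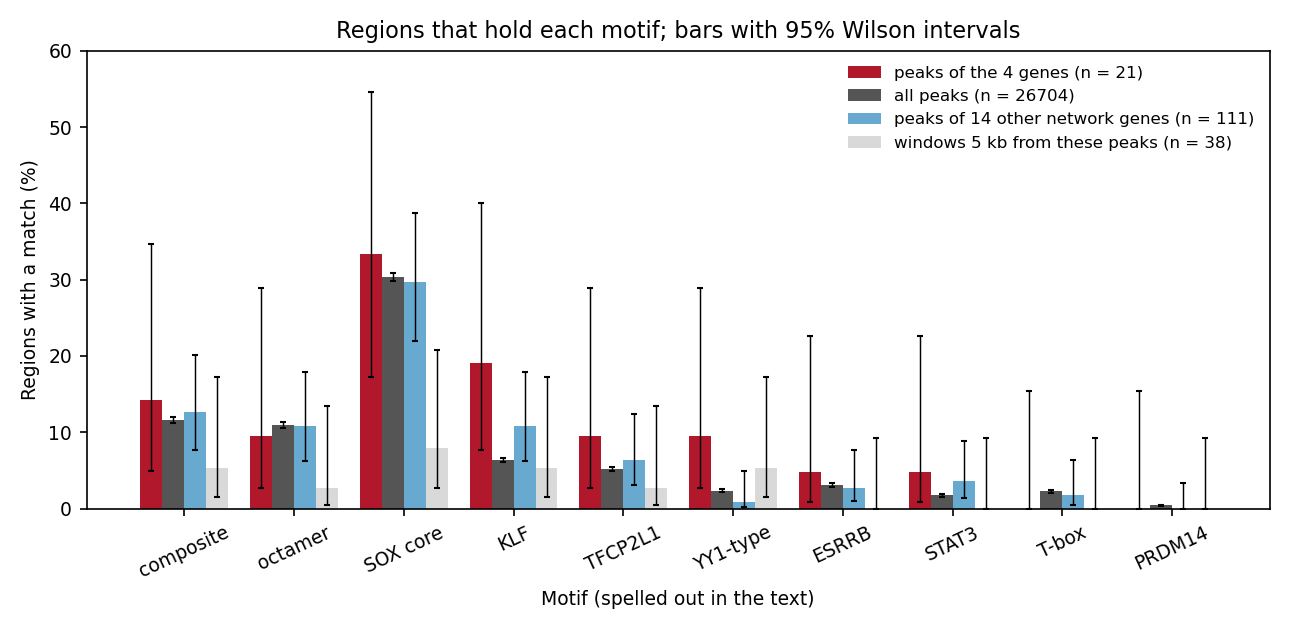
Share of regions with at least 1 match in percent (y axis, bars starting at 0, with 95% Wilson intervals) for each motif (x axis), in the 21 peaks of the 4 genes, all 26704 peaks, the 111 peaks of 14 other network genes and the 38 windows. The intervals of the 21 peaks contain the share of all peaks for the composite (14.3 against 11.5%), the octamer and the SOX core, and are wide throughout.

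Neighbouring peaks were at moderate distances. The median gap from a midpoint to that of the next peak was 11.3 kb for the 21 peaks and 18.2 kb for the list. Within 10 kb of another peak lay 6 of 21 (28.6%, 95% Wilson interval 13.8 to 50.0%), against 33.9% of all peaks and 65.8% of the peaks of the 14 other network genes. Within 20 kb the direction against the list turned, with 81.0% of the 21 peaks and 52.7% of all peaks, and within 5 kb the shares were 9.52% and 18.7%. These 6 were the intronic pair of Tfcp2l1, 5.44 kb apart, and 2 pairs of Tbx3, 5.18 kb apart at the upstream end and 3.28 kb apart downstream. No Zfp42 or Prdm14 peak had a neighbour closer than 10.2 kb. Within 1 kb of the start of a non-coding gene lay 2 of the 21 peaks, those at Gm16063 and Gm37162. Their share was 9.52% (95% Wilson interval 2.65 to 28.9%), against 3.52% of all peaks.

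The 14 other genes of the naive network listed here, among them Esrrb, Nanog, Klf4 and Sox2, all had peaks by the same rule, 3 to 18 each with a median of 7, against 3 to 9 with a median of 4.5 for the 4 genes. The most were found at Tcf7l1 (18), the repressor acting at the end of the WNT pathway, Sall4 (15), a zinc finger factor, and Pou5f1 (13), which encodes OCT4. At Pou5f1 only 3 of the 13 were nearest to a Pou5f1 start, and at Nanog 3 of 12, since other coding genes start close to both. Tcf7l1 kept 11 and Sall4 9 on this count, Sox2 kept all 9 and Esrrb all 8. Counted in this way Tbx3 also has 9, and no difference between these genes was tested. A composite match was found in 14 of the 111 peaks of the 14 genes (12.6%, 95% Wilson interval 7.66 to 20.1%).

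A selection of genes from the same families as the 4 was counted in the same way. Of 33 such genes, 30 had a peak (0 to 16 each, median 4), against the background of 85.7%. Prdm1, the gene of the germ cell regulator BLIMP1, had 16 peaks, all nearest to its own start, and Tfcp2 and Prdm16 had 9 each. Among 13 other T-box genes on this list, which is not the whole family, the counts ran from 0 to 7 with a median of 3, against 9 at Tbx3. Tbx5, which lies next to Tbx3 on chromosome 5, and Tbr1 had 0, as had Prdm11. Prdm14 with 5 peaks was above the median of 3 of the 13 other Prdm genes listed, Zfp42 with 4 stood beside Yy1 (4) and Yy2 (6), and Tfcp2l1 with 3 stood below the median of 7 over its 5 listed relatives.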

How the data were processed

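OCT4 ChIP-seq of 2TS22C cells comprised 4 libraries, 2 SOX2 ON and 2 SOX2 OFF, of 16 in the series. According to the study's methods and the submitters' processing notes, the authors aligned reads to mm10 with STAR 2.6.1c, removed duplicates with Picard, called peaks with MACS2 2.1.1.20160309 and merged them with bedtools. The deposited values are other than counts: 3 coordinates a peak, namely its chromosome and the base pairs where it begins and ends. Which libraries entered the merge is not given in the sources used here.

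Peaks were assigned to genes by their midpoints (GENCODE M21), annotated, and scanned for motifs with Python 3.11.15, NumPy 2.4.6 and SciPy 1.17.1, with code tested on simulated data. Starts are 1-based. Sequences come from the RefSeq copy of GRCm38, whose chromosome names and lengths fit all 26704 peaks. RefSeq gave the promoter windows and enhancers. No hypothesis test was possible, since the list has no libraries. Members, gene lists and motifs were chosen with earlier results of these data known. For each gene the peak nearest to a start, those within 1 kb of one, the widest, and those with a composite match were described, with exceptions named in the text. Alternatives changed the window, starts, overlap rule, peak width, joining of peaks, mismatches and central region scanned.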

Additional observations from a re-analysis of the deposited data

How the results depend on the processing

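Of 51 alternatives over 11 values, 39 left the count within 1.5 times, or the share or median within its 95% binomial interval. Some of the 39 could not have come out otherwise. Joining peaks less than 1 kb apart changed nothing because no peak of the 21 had a neighbour closer than 3.28 kb. Keeping only peaks nearest to the gene's own start changed nothing because all 21 already were. The count of 39 is therefore no measure of stability. A window of 20 kb left 8 peaks of 21, with 2 at Tbx3, 2 at Zfp42 and 1 at Prdm14, and a window of 50 kb left 3 at Prdm14. Without peaks under 300 bp, Zfp42 kept 2, and its promoter peak is one of those lost. The composite share was 0% with at most 2 mismatches and 61.9% with at most 4. Within 50 kb it was 6.25% of 16 peaks, inside the 95% interval of the reported share but below the 11.5% of all peaks. The octamer share was 57.1% with 1 mismatch, against 53.5% of all peaks, and the SOX core share was 9.52% in the central 200 bp, against 20.5% of all peaks. Within 5 kb of another peak lay 9.52% and within 20 kb 81.0%, against 18.7% and 52.7% of all peaks. What lies behind these shifts was not tested. No paired analysis was possible because no column of the list stands for a library or replicate, and for the same reason no replicate could be left out. The depth of the libraries is unknown.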

Other observations

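Beyond the edge of the assignment rule, the next peak outside it stood 102 kb from a start of Tfcp2l1, 127 kb from Zfp42, 136 kb from Prdm14 and 184 kb from Tbx3, whereas the farthest assigned peaks stood at 20.2, 46.9, 67.2 and 90.7 kb. The nearest coding start to the outside peak was that of Tfcp2l1 and Tbx3 for these genes, of Triml2 for Zfp42 and of Slco5a1 for Prdm14. None of the 4 outside peaks had a composite match with at most 3 mismatches.

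CpG dinucleotides numbered 1 to 16 per peak. The density over the 21 peaks was 14.2 per kb, against 16.2 over the list. The highest count, 16 in 451 bp, was at the Tbx3 peak 26.6 kb downstream, and its neighbour at 29.8 kb had 15. The median GC content was 46.7%, against 46.4% for all peaks. The median repeat-masked share was 13.0% in both the 21 peaks and the list, against 33.9% in the windows 5 kb away.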
